A study of Homo sapiens with 8 samples.

Results

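The 1090 regions described here are places in the genome where the progesterone receptor (PR) was called in T47D MTVL WT cells after R5020 and the glucocorticoid receptor (GR) was called in T47D A1/2 cells after dexamethasone (Dex), while no PR peak was called in T47D A1/2 cells after R5020. They were found by merging the peaks of these 3 lists wherever peaks overlapped by at least 1 bp, after leaving out peaks outside chromosomes 1 to 22 and X and peaks at a peak of the A1-2 input. The merged lists made 51444 regions, and these 1090 were 2.12% of them (2.00 to 2.25). The regions were chosen by the peak calls of the 3 lists, so the scores of these calls are given as a description, without a test.

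Binding was mapped by ChIP-seq, which sequences the DNA that an antibody pulls down together with a bound protein. All cells derive from T47D, a human breast cancer line in wide use. T47D A1/2 (A1-2) carries both receptors according to the series and is known in the field as a derivative made to express GR stably. The labels name the MTVL WT line as the control, and T47D MTVL is known as a derivative with an integrated mouse mammary tumour virus promoter reporter. The libraries behind the choice were PR from MTVL cells and from A1-2 cells, each after 60 min of 10 nM R5020, a synthetic progestin, and GR from A1-2 cells after 60 min of 10 nM Dex, a synthetic glucocorticoid. The other lists were GR from A1-2 cells after R5020 at the same dose and time, and the untreated lists of GR in A1-2 cells and of PR in each line, with A1-2 input DNA as background. All cells had been kept in hormone-stripped medium and then starved of serum. PR was precipitated with 1 antibody in both lines, and GR with a mix of antibodies.

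GR and PR are closely related steroid receptors. Each sits largely inactive until its hormone binds, then enters or settles on chromatin as a dimer. Their DNA-binding domains are very similar, and both recognise the same kind of imperfect palindrome of hexamers with a short spacer, the hormone response element, often beside sites of pioneer factors such as the forkhead proteins. In breast epithelium PR directs progestin responses such as proliferation and alveolar development, and GR directs stress hormone responses and metabolic and anti-inflammatory genes. The receptors can therefore be found at the same DNA sites when both are present in a cell.

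With 1 library per condition there were no replicates, and p-values are not given. All intervals are 95% intervals over regions, for counting error alone. Read depth, which sets how many peaks are called, was unknown. The lists held 43070 PR peaks of MTVL cells, 18415 GR peaks after Dex and 28262 PR peaks of A1-2 cells. The score of a peak is the authors' own, taken as 10 times the negative log10 of the peak's p, with a floor of 100 and a ceiling near 3100. A region takes the score of its highest peak in a list. GR was mapped in A1-2 cells after Dex and PR in MTVL cells after R5020, so the 2 calls that define a region differ in hormone and in cell line, and they do not show GR in the place of PR under 1 hormone. How much of each receptor the cells held was not measured by these lists. Positions are in the hg19 build.

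The regions were weak in both lists that define them. Their MTVL PR score had a median of 184 (174 to 195) and a range of 100.1 to 3071, against a median of 313 for the MTVL list. The middle 50% of them lay between 131 and 306. Their GR Dex score had a median of 138 (134 to 143) and a range of 100.1 to 995, against 193 for the GR list. Here the middle 50% lay between 115 and 184. The median region thus stood at the 30.0th percentile of the MTVL PR list and at the 28.5th percentile of the GR Dex list. The 11528 regions that also had an A1-2 PR peak were stronger on both sides, with a median MTVL PR score of 914 (885 to 943) and a median GR Dex score of 249 (243 to 254). In MTVL PR score the 1090 regions lay close to the 18796 regions of MTVL PR alone, which had a median of 187 (184 to 189). In GR score they lay close to the 3719 regions of GR Dex alone, with a median of 136 (134 to 138).

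**Figure D1:**
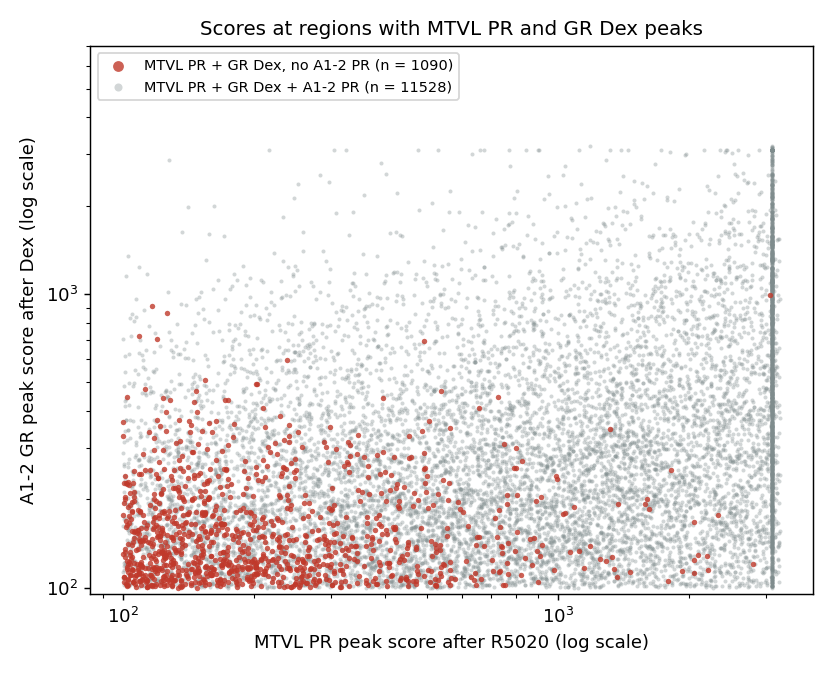
GR Dex score of A1-2 cells (y axis, log scale) against PR score of MTVL cells (x axis, log scale), 1 point per region, for the 1090 regions without an A1-2 PR peak (red) and the 11528 regions with one (grey). The red points crowd the lower left corner, with medians of 184 and 138, and 1 of them stands apart at 3071 and 995.

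The scores of a region in the 2 defining lists had next to no rank relation. Spearman's rho between the MTVL PR score and the GR Dex score was 0.005 over the 1090 regions and 0.33 over the 11528 regions with A1-2 PR, as a description over sites of the same libraries. Regions high in both lists seldom lacked A1-2 PR, so the rule narrows both scores and can lower rho by itself. How much it did so was not tested. MTVL PR scores of at least 500 were found at 123 regions (11.3%, 9.47 to 13.3) and GR Dex scores of at least 500 at 8 (0.734%, 0.317 to 1.44). The 123 were 1.57% (1.31 to 1.87) of the 7829 regions of MTVL PR and GR Dex at that PR score. The 8 were 0.299% (0.129 to 0.589) of the 2673 at that GR score. Of all 12618 regions of MTVL PR and GR Dex, 8.64% lacked A1-2 PR. Both scores were this high at 1 region.

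That region, at chr11:47598460-47599622, led by either score, with an MTVL PR score of 3071 and a GR Dex score of 995. It is a member through the treatment of input peaks. The authors' A1-2 PR list held a peak there from 47598504 to 47599926 with a score of 3133. This peak reached an input peak that begins at 47599878 (score 104) and was left out for that reason, while the MTVL PR and GR peaks ended 255 bp short of the input peak. A second region, at chr20:37099940-37100780, was of the same kind, with an A1-2 PR peak of score 167 left out for an input peak 3 bp beyond the region. In the other 1088 regions the deposited A1-2 PR list held no peak at all. Among those 1088, no region had both scores at 500 or more, and the medians were 183 for MTVL PR and 138 for GR Dex.

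The regions strongest for PR in MTVL cells had low GR scores, as most of the 1090 did. After the chromosome 11 region, the highest MTVL PR score belonged to the region at chr7:53278541-53279488, with a PR score of 2804 and a GR Dex score of 120.5. Its nearest A1-2 PR peak lay 26282 bp away with a score of 118. The region at chr12:94985534-94986253 had a PR score of 2339 and a GR score of 177, and a strong A1-2 PR peak (score 3103) stood 29171 bp from it. At chr10:4308323-4309427 the scores were 2212 for PR and 115 for GR. A region at chr13:94578852-94579667 had 2203 for PR and 128 for GR, with the nearest A1-2 PR peak 104763 bp off. The regions ranked 6 to 10 by PR score, on chromosomes 8, 11, 6, 3 and 20, ranged from 1929 to 2095 in PR score and from 112 to 167 in GR score. In all, 30 regions had an MTVL PR score of at least 1000, with a median GR score of 131, and without the chromosome 11 region the highest GR score among them was 348. These 30 were 0.545% (0.368 to 0.777) of the 5507 regions of MTVL PR and GR Dex at that PR score.

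The regions strongest for GR mostly had low MTVL PR scores. At chr5:1413796-1415306 the GR Dex score was 910 and the MTVL PR score 117, and an A1-2 PR peak of score 903 lay 1081 bp away. The region at chr18:25736100-25737165 had a GR score of 864 and a PR score of 126, with its nearest A1-2 PR peak 232941 bp away. At chr10:28688804-28689475 the scores were 722 for GR and 109 for PR. The region at chr13:89819547-89820456 had 705 for GR and 119 for PR. An exception stood at chr3:197486430-197487423, where the GR score of 690 (689.88 as deposited) went with a PR score of 491. The regions ranked 7 to 10 by GR score lay on chromosomes 10, 17 and 6 and had GR scores of 495 to 595 and PR scores of 155 to 239.

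Regions that stood high in both lists were few. Ranked by the lower of the 2 percentiles, the chromosome 11 region was followed by the region at chr10:69277142-69277957, with a PR score of 1317 (84.3rd percentile) and a GR score of 348 (74.8th percentile). The nearest A1-2 PR peak was 277929 bp away from it. Next came a region at chr3:27386365-27387497, with scores of 727 for PR and 445 for GR and an A1-2 PR peak of score 557 at 3635 bp. The region at chr1:37595446-37596848 had 750 for PR and 309 for GR (750.42 and 308.94 as deposited). At chr11:69538407-69539075 the scores were 563 for PR and 350 for GR (349.84 as deposited). At chr4:160097089-160097651 they were 539 and 469.

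Many of the calls stood near the threshold. Of the 1090 regions, 105 had an MTVL PR score under 110, 187 a GR Dex score under 110 and 274 either of them. The 10th percentile of the MTVL PR score was 110.7 here and in regions of MTVL PR alone, and 180 with all 3 peaks. That of the GR Dex score was 105.6 here, 104.4 in regions of GR Dex alone and 119 with all 3 peaks. On the other side of the rule, 202 regions of all 3 lists had an A1-2 PR score under 110. Their median MTVL PR score was 192 (173 to 224) and their median GR Dex score 144 (135 to 153). The mirror class, with GR Dex and A1-2 PR but no MTVL PR, held 1880 regions, with a median GR score of 190 (189.85 as computed; 183 to 196).

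How often an A1-2 PR peak was missing was read against both scores. Of the 12618 regions with MTVL PR and GR Dex, 8.64% (8.15 to 9.14) had no A1-2 PR peak, against 62.0% (61.5 to 62.6) of the 30301 MTVL PR regions without GR Dex and 46.3% of all MTVL PR regions. These shares were not taken at like MTVL PR scores. The median MTVL PR score was 914 with all 3 peaks and 187 for MTVL PR alone. GR Dex and A1-2 PR also come from the same cell line. The 8.64% moved with the score asked of the lists. It was 1.64% (105 regions) when at least 200 was asked of the MTVL PR and GR Dex lists, with A1-2 PR kept from 100. That setting trims the 2 lists that make a region and not the list that removes one. The share was 6.57% (423 regions) with at least 200 in every list and 6.61% with the 18000 highest peaks of each. In the lowest quintile of the MTVL PR score (100.02 to 239.6) the share was 27.8% (26.0 to 29.6), and it was 11.5%, 2.97%, 0.912% and 0.0792% in the quintiles above it. In the lowest quintile of the GR Dex score (100.04 to 135) it was 20.7% (19.1 to 22.3), and 12.3%, 7.09%, 2.85% and 0.277% in those above. The share was lower at higher values of each score when the other was held in 1 quintile, apart from single regions in the highest PR quintile. Where both were in the lowest quintile, 42.2% (38.7 to 45.7) of 787 regions lacked A1-2 PR. With the PR score still in its lowest quintile and the GR score in its highest, 2.86% (0.934 to 6.54) of 175 regions did. With the GR score in its lowest quintile and the PR score in its highest, it was 0.535% (0.0135 to 2.94) of 187. The only member where both scores were in the highest quintile was the chromosome 11 region with the left-out A1-2 peak, 1 of 1125 regions.

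**Figure D2:**
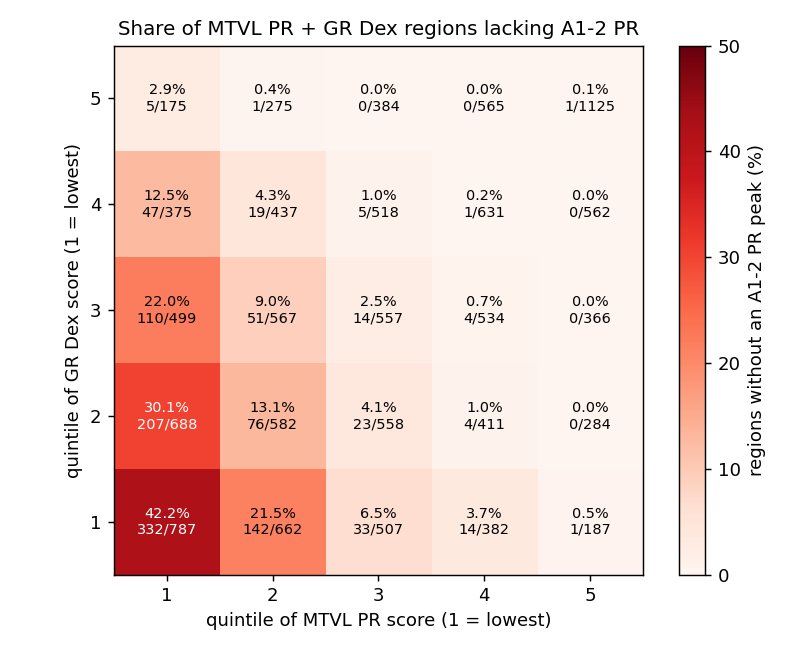
Percentage of regions with MTVL PR and GR Dex peaks that have no A1-2 PR peak, by quintile of the MTVL PR score (x axis) and of the GR Dex score (y axis), with the number without A1-2 PR over all regions in each square. The share is 42.2% where both scores are in the lowest quintile, and no more than 0.0889% where both are in the highest.

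Regions of similar score fell on both sides of the rule. Of the 970 regions whose MTVL PR and GR Dex scores both lay in the middle 50% of the 1090, 279 (28.8%, 25.9 to 31.7) lacked A1-2 PR. The other 691 had an A1-2 PR peak with a median score of 197 (188 to 205), and the middle 50% of those scores lay between 142 and 274. For comparison, the 5477 regions with A1-2 PR and an MTVL PR score of at least 1000 had a median A1-2 PR score of 1194 (1162 to 1227).

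The lists that the rule did not use were short and held almost no peak at these regions. They held 1185 GR peaks after R5020, 394 untreated GR peaks, 630 untreated PR peaks of A1-2 cells and 219 of MTVL cells. Shares at these lists were therefore low in every class of regions. After R5020, GR was called at 0 of the 1090, while GR R5020 peaks lay at 1.34% of all merged regions. A count of 0 of 1090 allows a share of up to 0.275% by a limit of 3 counts, and the exact interval reaches 0.338%. Limits given as "up to" are of 3 counts and lie under the upper end of the exact interval. The shares were 1.73% (1.504 to 1.99) of the regions with all 3 peaks, 2.80% (2.29 to 3.38) of the regions of GR Dex alone and 0.117% (0.0734 to 0.177) of the regions of MTVL PR alone. The shares were then taken at like scores and outside dense places. With the GR Dex score held to the middle 50% of the members, GR R5020 peaks lay at 0 of 544 members (up to 0.551%), at 0.485% (0.272 to 0.799) of 3092 regions with all 3 peaks and at 2.13% (1.52 to 2.89) of 1835 regions of GR Dex alone. Leaving out chromosome 16 from 34 to 36 Mb and chromosome 3 beyond 150 Mb, where GR R5020 peaks were dense, it was 0 of 525 members (up to 0.571%), 0.463% (0.253 to 0.775) of regions with all 3 peaks and 1.07% (0.647 to 1.67) of regions of GR Dex alone. The exact interval for the 0 of 525 members reaches 0.700%. It overlaps the intervals of both classes, by little for GR Dex alone, where the interval begins at 0.647%. Overlap of intervals is no test of a difference, and the differences were not tested.

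Without hormone, PR of MTVL cells was called at 0 of the 1090 regions (up to 0.275%), against 0.465% of all merged regions and 1.29% (1.09 to 1.52) of the regions with all 3 peaks. It was also rare in the classes of weaker peaks, at 0.122% (0.0776 to 0.184) of the regions of MTVL PR alone and at 0 of the 3719 regions of GR Dex alone (up to 0.0807%). With the MTVL PR score held to the middle 50% of the members, it was called at 0 of 544 members (up to 0.551%), at 0 of 1954 regions with all 3 peaks (up to 0.154%) and at 0.0749% (0.0301 to 0.154) of 9343 regions of MTVL PR alone, so no difference was detectable at like scores. Untreated GR peaks lay at 4 (0.367%, 0.100 to 0.937), against 0.498% of all regions and 0.321% (0.226 to 0.442) of the regions with all 3 peaks. They lay at 0.0160% (0.00329 to 0.0466) of the regions of MTVL PR alone and at 0.565% (0.350 to 0.862) of those of GR Dex alone. Untreated PR peaks of A1-2 cells lay at 1 (0.0917%, 0.00232 to 0.510), against 0.793% of all regions and 0.101% (0.0609 to 0.158) of the regions of MTVL PR alone. They lay at 0.512% (0.390 to 0.660) of the regions with all 3 peaks and at 0.672% (0.435 to 0.991) of those of GR Dex alone. The 4 regions at an untreated GR peak were at chr8:82753535-82755144 (untreated GR score 285), at chr1:180991218-180992607 (312), at chr21:34143863-34144711 (230.3) and at chr11:43901863-43902686 (146). The last of them also held the untreated A1-2 PR peak, with a score of 145, beside an MTVL PR score of 102 and a GR Dex score of 116 after hormone. An untreated peak of any list lay at 0.367% (0.100 to 0.937) of the 1090 regions, at 1.4% of all merged regions and at 0.229% (0.166 to 0.308) of the regions of MTVL PR alone. The share was 1.84% (1.60 to 2.10) for the regions with all 3 peaks and 1.08% (0.769 to 1.46) for those of GR Dex alone.

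**Figure D3:**
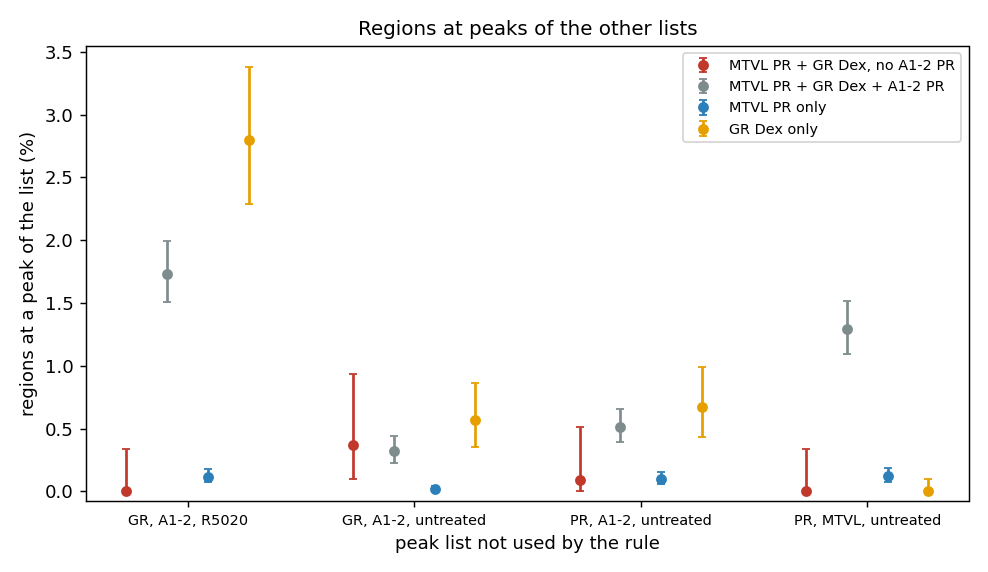
Percentage of regions at a peak of each list not used by the rule (y axis; lists on the x axis), for the 1090 regions (red), the regions with all 3 peaks (grey), MTVL PR alone (blue) and GR Dex alone (orange), with exact 95% intervals. The red points are at 0 for GR after R5020 and for untreated MTVL PR, where the grey ones are at 1.73% and 1.29% and the blue ones at 0.117% and 0.122%.

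PR and GR peaks overlapped within these regions, as the rule asks. How close they lay therefore follows in part from the rule and is a description. Regions with all 3 peaks were also built by merging overlapping peaks. Their midpoints were a median of 39.5 bp apart (36 to 42.5), and 93.9% (92.4 to 95.3) were within 200 bp. In the regions with all 3 peaks the median was 42 bp (41 to 43) and 90.8% (90.3 to 91.3) were within 200 bp. In 607 regions (55.7%, 52.7 to 58.7) 1 peak lay wholly inside the other, and the overlap was under 50% of the shorter peak in 5 regions. Only 2 regions held more than 1 peak of a list. Median peak widths were 621 bp (614 to 628) for MTVL PR and 598 bp (586 to 610) for GR Dex, against 773 bp (767 to 778) and 680 bp (676 to 684) where A1-2 PR was also called. The PR peak was the wider one in 59.0% (56.0 to 61.9) of the regions, against 71.4% (70.5 to 72.2) of the regions with all 3 peaks. Peak width moved with the score in these comparisons, and its part was not tested.

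A1-2 PR peaks were found in the neighbourhood of the regions but seldom right beside them, as was so for regions of MTVL PR alone and of GR Dex alone. The nearest one was a median of 21941 bp away (18711 to 24333), with the middle 50% between 5788 and 62472 bp. This median depended on how many A1-2 PR peaks were kept, and was 41381 bp with a lowest score of 200 in every list and 41324 bp with the 18000 highest peaks of each. The distances of other classes were not taken under those settings. Regions of GR Dex alone had a median of 18269 bp (16937 to 19415), an interval that overlaps that of the 1090, and regions of MTVL PR alone were farther off, with 26841 bp (26094 to 27725). An A1-2 PR peak stood within 1 kb of 68 of the regions (6.24%, 4.88 to 7.84), within 10 kb of 381 (34.95%, 32.1 to 37.9) and within 100 kb of 930 (85.3%, 83.1 to 87.4). At these distances the shares were 6.49%, 30.3% and 80.0% for MTVL PR alone and 9.12%, 37.0% and 87.5% for GR Dex alone. At 9 of the 1090 regions an A1-2 PR peak was within 200 bp, and the smallest gap was 17 bp. The nearest other merged region held an A1-2 PR peak for 51.3% (48.3 to 54.3) of the 1090, against 60.9% (60.0 to 61.8) of the regions with all 3 peaks, 58.1% (56.5 to 59.7) of those of GR Dex alone and 46.6% (45.9 to 47.4) of those of MTVL PR alone. Of all merged regions, 54.1% held an A1-2 PR peak. These distances follow in part from the rule, which asks for the absence of an A1-2 PR peak.

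**Figure D4:**
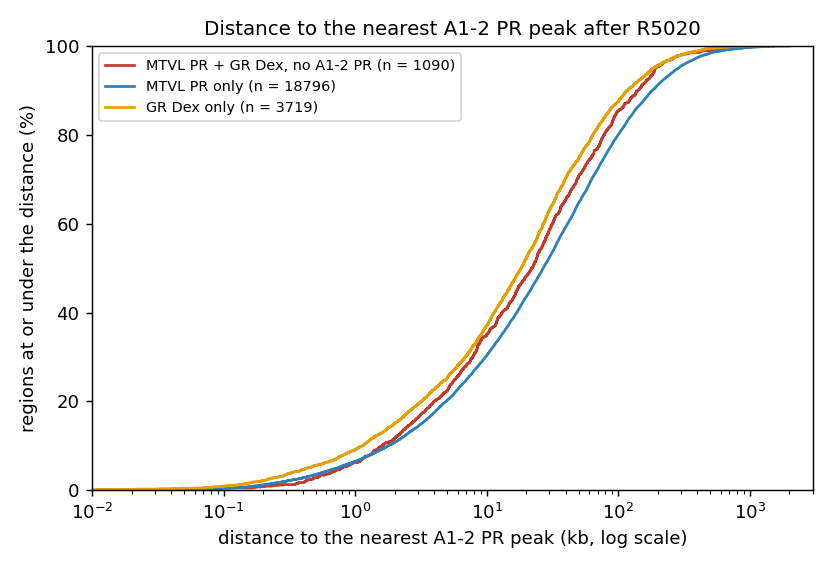
Cumulative percentage of regions (y axis) by distance to the nearest A1-2 PR peak after R5020 (x axis, kb, log scale), for the 1090 regions (red), MTVL PR alone (blue) and GR Dex alone (orange). The red line runs between the other two over most of the range, its median being 21941 bp, compared with 26841 bp for MTVL PR alone and 18269 bp for GR Dex alone.

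The wider surroundings were set beside those of the regions with all 3 peaks. Among MTVL PR regions without GR Dex that lay within 500 kb on either side, an A1-2 PR peak was present at 39.1% around the 1090 regions and at 43.1% around the regions with all 3 peaks, counting a neighbour once for each region it surrounds. Per region with at least 5 such neighbours, the median was 38.5% (middle 50% between 26.7% and 50%) around 1034 of the 1090 and 42.9% (between 31.25% and 56.25%) around 10918 of the regions with all 3 peaks, so the distributions overlapped widely.

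The regions were spread over all 23 chromosomes, with 106 on chromosome 1 and 8 on chromosome 19. Chromosome was not used by the rule. Among regions with MTVL PR and GR Dex, the share without A1-2 PR was lowest on chromosome 19, at 3.32% (1.44 to 6.44) of 241, and on chromosome 16, at 4.42% (2.82 to 6.56) of 520. Chromosome 14 followed with 5.63% (3.91 to 7.82) of 586. The highest share was that of chromosome 21, at 15.4% (9.56 to 23.1) of 123, followed by chromosome 6 with 11.2% (8.96 to 13.9) of 676. Set against the number that the shares in the score grid would give, chromosome 19 had 0.362 times as many (0.157 to 0.701), chromosome 16 0.538 times (0.344 to 0.798), chromosome 14 0.585 times (0.406 to 0.813) and chromosome 20 0.681 times (0.474 to 0.943). Chromosome 21 had 1.68 times as many (1.04 to 2.51) and chromosome 6 had 1.27 times as many (1.01 to 1.57). The remaining intervals spanned 1. They were not adjusted for the 23 chromosomes.

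Chromosomes 19 and 21 were also the lowest and the highest for MTVL PR regions without GR Dex. These lacked A1-2 PR at 42.3% (38.2 to 46.5) on chromosome 19, at 43.6% (39.5 to 47.9) on chromosome 20, at 50.3% (46.6 to 54.1) on chromosome 16 and at 75.1% (70.9 to 79.0) on chromosome 21. Chromosome 6, the second highest among regions with GR Dex, lay near the overall 62.0% here, at 63.2% (61.0 to 65.4). Across the 23 chromosomes the 2 shares had a Spearman's rho of 0.573 and a Pearson's r of 0.785, as a description, since both come from the same pair of PR libraries. The chromosomes' copy number was not analysed here. The input list, the only list of A1-2 input DNA, gives called peaks and no amount of DNA. It had 0.228% of its peaks on chromosome 19, 1.52% on chromosome 21 and 12.1% on chromosome 3. These chromosomes held 1.97%, 1.24% and 7.17% of all merged regions. Chromosome 22 also had 0.228% of the input peaks, chromosome 13 had 0.455% and chromosome 16 had 4.704%. Among their regions with GR Dex, 6.699%, 9.76% and 4.42% lacked A1-2 PR. Whether input peaks and the lack of A1-2 PR go together was not tested. Beyond 150 Mb on chromosome 3, 41 of 319 regions lacked A1-2 PR (12.9%, 9.38 to 17.0).

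**Figure D5:**
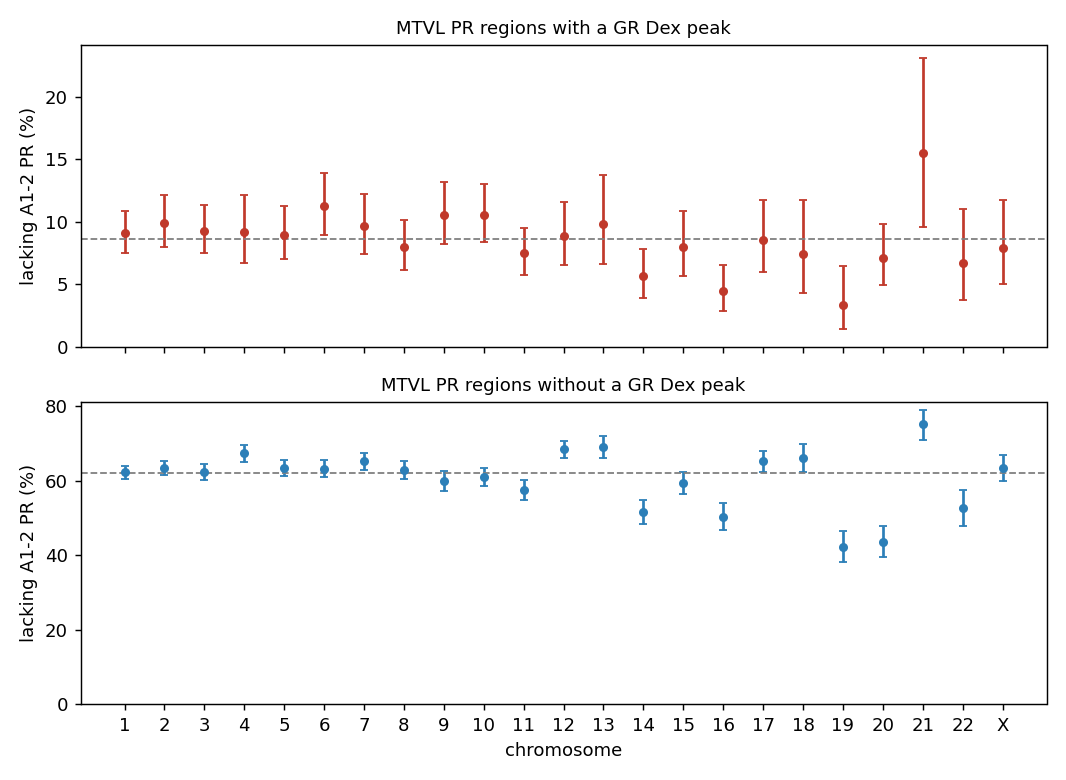
Percentage of MTVL PR regions without an A1-2 PR peak (y axis) by chromosome (x axis), for regions with a GR Dex peak (upper panel, red) and without one (lower panel, blue), with exact 95% intervals and the share over all chromosomes as a dashed line. Chromosome 19 is lowest in both panels, at 3.32% and 42.3%, and chromosome 21 highest, at 15.4% and 75.1%.

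The spacing of the regions is a description, since it depends on how many regions a class holds. The next one of the kind was a median of 530587 bp away. This distance was 28126.5 bp for the 11528 regions with all 3 peaks. It was 27683 bp for the 18796 regions of MTVL PR alone and 94922 bp for the 3719 of GR Dex alone. Of the 1090, 162 (14.9%, 12.8 to 17.1) had another within 100 kb and 42 (3.85%) had one within 10 kb. Whether 1090 regions at random places would stand closer or farther apart was not tested. No window of 100 kb held more than 3. In 2 such groups of 3, no other merged region lay between the members. One ran at chr13:94578852-94609641, with MTVL PR scores of 174 to 2203 and GR Dex scores of 128 to 273. The other ran at chr7:37321174-37373196, with MTVL PR scores of 113 to 292 and GR Dex scores of 100.4 to 302. The closest group, at chr6:7318867-7343001, held 3 members among 5 regions, of which 1 had all 3 peaks. Groups of 3 also lay at chr1:25407648-25494717 and at chr11:106155723-106246972, each with A1-2 PR peaks between the members (3 and 4).

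Shares were also taken in segments of 5 Mb, as a description. Of 278 segments with at least 20 regions of MTVL PR and GR Dex, 28 held no member, the median share without A1-2 PR was 7.596%, and 3 reached 25% or more. The highest share was on chromosome 7 from 35 to 40 Mb, where 9 of 28 regions lacked A1-2 PR (32.1%, 15.9 to 52.4), against 4.31 given by the score grid. That segment holds the chromosome 7 group of 3. The interval of the share lay above 8.64% in 5 segments and below it in 4, with no adjustment for the number of segments.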

How the data were processed

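Chromatin of T47D A1-2 and MTVL WT cells was precipitated with antibodies against GR or PR and sequenced on a Genome Analyzer, per the labels. Bowtie 1.1.1, MACS 1.4.2, bedtools and hg19 are named in the submitters' processing notes. For their settings, the control library and the read depth, nothing is stated in the sources used here. A deposited file lists the peaks of 1 library, not pooled, for 8 files in all, with a score per peak, taken as 10 times the negative log10 of the deposited peak's p. Scores describe or rank peaks within a list.

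Merged regions were built and classed as described in the report, with positions counted from 1. Regions named were the 10 highest by MTVL PR score, by GR Dex score and by the lower of the 2 percentiles, up to 5 at each other list, and the 5 closest groups within 100 kb. Shares have exact (Clopper-Pearson) 95% intervals, medians have order-statistic intervals, and a share of 0 has a limit of 3 counts. The number given by the score grid sums, over regions, the share without A1-2 PR in each of the 25 squares of quintiles. Members, lists and tests were chosen with earlier results of these data known. No genome or annotation of hg19 was used here, so no gene or sequence is given and the planned motif and gene counts were not run. Merging was tested on simulated data, and bedtools 2.31.1 gave the same 1090 of 51444 regions. Python 3.11.15, numpy 2.4.6, scipy 1.17.1 and matplotlib 3.10.9 were used. The closing part gives 9 alternatives.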

Additional observations from a re-analysis of the deposited data

How the results depend on the processing

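Over 9 results, 80 alternative values were computed, of which 54 stayed within the 95% interval of the reported value (or within 1.5 times for the number of regions) and 26 moved further. The results are counts, shares and medians of these regions alone, and the comparisons with other classes were not run under the alternatives. With 200 as the lowest score in every list, 423 regions remained as a count, 6.57% of those with MTVL PR and GR Dex, with median scores of 350.15 (MTVL PR) and 273 (GR Dex), a median of 41381 bp to the nearest A1-2 PR peak and 7.09% with another within 100 kb. With 200 asked of the MTVL PR and GR Dex lists only, the values were 105 regions, 1.64%, 347, 260.06, 29294 bp and 3.81%, and 0% lay at an untreated peak. These settings cut the scores by construction. With the 18000 highest peaks of each list they were 554 regions, 6.61%, a median MTVL PR score of 632, 41324 bp, 9.21% and 43 bp between midpoints. Midpoints within 200 bp gave 10.3%, scores of 202 and 144, 14734 bp and 18.3%. Asking for no A1-2 PR peak within 1 kb gave 8.10% and 24422 bp. Keeping peaks at input peaks gave 1092 regions, an overlap of 50% of the shorter peak 1088, and leaving out the regions at a left-out A1-2 PR peak, added after seeing the data, 1088. A GR R5020 peak lay at 0.236% of the 423 regions and, under the midpoint rule, at 0.249%. No paired analysis was possible because each condition had 1 library. Read depth was unknown, and which weak peaks are called moves with it.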
